A study of Mus musculus with 8 samples.

Results

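WFS1 ChIP-seq peaks were described around 10 mouse genes that encode inhibitors of the myogenic programme or transcriptional repressors of the same families. These were Id1, Id2, Id3, Id4, Twist1, Twist2, Snai1, Snai2, Zeb1 and Zeb2. The genes were given as a list and make up 10 of the 21938 annotated protein-coding genes. For each gene, every WFS1 peak whose nearest edge lay within 100 kb of the gene body was collected. This gave 82 of the 22292 peaks of the combined set, and no peak fell within reach of more than 1 of the 10 genes. The most distant peak taken in lay 99.6 kb past the end of Twist2, and the nearest peak left out lay 106 kb from Snai1.

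WFS1 ChIP-seq was performed in proliferating wildtype C2C12 cells, a mouse myoblast line, after crosslinking with disuccinimidyl glutarate (DSG) and formaldehyde. Chromatin was sheared with 30 cycles of sonication, and a portion of the immunoprecipitated DNA was sheared for 6 further cycles, which gave a 30-cycle and a 36-cycle library. The peak list of each library was used here, while the remaining 6 of the 8 libraries, the inputs and those from WFS1 knockout cells expressing WFS1-FlagTag, were not used here. Both lists stem from 1 immunoprecipitation, so they are not replicates of each other, and no test between them or between genes was possible.

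WFS1 is a transmembrane protein of the endoplasmic reticulum, and its presence in the inner nuclear membrane was the reason for asking which genomic regions it associates with. Id proteins have a helix-loop-helix domain without the basic region that contacts DNA. They pair with E proteins, the partners of MyoD, and thereby keep MyoD from its E-box sites in proliferating myoblasts. Twist proteins are basic helix-loop-helix factors that counteract MyoD, and Snail and Zeb proteins are zinc finger repressors best known from epithelial-mesenchymal transition, which bind E-boxes of the CACCTG type. The Zeb genes belong to a zinc finger homeobox family separate from Snail. Neither RNA nor protein of the 10 genes was measured in these samples.

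The sequences that the results turn on are shown here, as the central 200 bp of selected peaks on the plus strand of GRCm38. Capitals mark matches to 5 of the 6 motifs searched on both strands, which were the MyoD-type E-box CAGCTG, the Snail/Zeb-type E-box CACCTG, which reads CAGGTG on the other strand, the AP-1 motif TGACTCA, the RUNX-type motif TGTGGT, the TEAD-type motif CATTCC and the SMAD-type motif GGCGCC, of which no match is shown. None of these motifs contains another, but neighbouring matches can share bases. The pair of peaks around Id1 was chosen as the peaks of both lists within 10 kb of its start site, the Snai2 peak for the same reason, and the Id4 peak as the only peak near that gene. The others were picked after the motifs had been seen, because they hold an AP-1 motif, beside an E-box at Id2 and Zeb2 and beside a TEAD-type motif at Twist1, or because an E-box is repeated, as at Snai1.
Id1, 9.07 kb upstream of the start, chr2:152726769-152726968: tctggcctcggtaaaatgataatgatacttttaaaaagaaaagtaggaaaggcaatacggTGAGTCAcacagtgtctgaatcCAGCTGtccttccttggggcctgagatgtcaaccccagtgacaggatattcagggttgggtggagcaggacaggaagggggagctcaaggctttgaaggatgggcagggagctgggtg
Id1, 5.12 kb from the start, past the gene end, chr2:152741548-152741747: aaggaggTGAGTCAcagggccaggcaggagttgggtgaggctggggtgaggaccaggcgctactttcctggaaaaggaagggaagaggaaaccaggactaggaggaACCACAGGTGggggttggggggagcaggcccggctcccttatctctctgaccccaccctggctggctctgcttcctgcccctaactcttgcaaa
Id2, 92.1 kb upstream of the start, chr12:25189231-25189430: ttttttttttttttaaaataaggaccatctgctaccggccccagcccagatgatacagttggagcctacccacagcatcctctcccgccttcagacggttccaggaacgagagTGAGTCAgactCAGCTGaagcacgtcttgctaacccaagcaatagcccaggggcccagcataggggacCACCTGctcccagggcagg
Id4, 73.2 kb from the start, past the gene end, chr13:48334742-48334941: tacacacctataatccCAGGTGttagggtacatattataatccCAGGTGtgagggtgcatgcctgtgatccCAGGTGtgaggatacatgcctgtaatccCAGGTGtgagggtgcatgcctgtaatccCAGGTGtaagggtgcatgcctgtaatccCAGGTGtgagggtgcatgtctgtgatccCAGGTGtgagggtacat
Twist1, 83.4 kb from the start, past the gene end, chr12:34041098-34041297: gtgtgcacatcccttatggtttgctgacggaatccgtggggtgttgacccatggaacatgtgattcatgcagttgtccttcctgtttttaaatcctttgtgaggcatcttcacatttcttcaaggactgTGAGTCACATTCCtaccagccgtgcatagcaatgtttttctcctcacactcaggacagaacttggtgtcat
Twist2, 15.0 kb from the start, in an intron, chr1:91816716-91816915: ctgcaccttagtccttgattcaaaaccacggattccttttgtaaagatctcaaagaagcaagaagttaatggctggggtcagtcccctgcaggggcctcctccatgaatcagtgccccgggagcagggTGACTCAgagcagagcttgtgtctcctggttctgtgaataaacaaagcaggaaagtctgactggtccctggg
Snai1, 52.1 kb from the start, past the gene end, chr2:167590495-167590694: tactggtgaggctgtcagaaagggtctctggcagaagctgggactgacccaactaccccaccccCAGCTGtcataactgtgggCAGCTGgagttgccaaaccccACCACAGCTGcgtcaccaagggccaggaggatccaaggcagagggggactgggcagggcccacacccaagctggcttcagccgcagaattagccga
Snai2, centre of the wide upstream peak, chr16:14704614-14704813: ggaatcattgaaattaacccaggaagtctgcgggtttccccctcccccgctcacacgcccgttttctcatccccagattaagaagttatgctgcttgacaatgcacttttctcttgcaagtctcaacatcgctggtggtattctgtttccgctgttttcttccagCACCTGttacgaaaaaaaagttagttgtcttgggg
Zeb2, 15.9 kb upstream of the start, chr2:45133351-45133550: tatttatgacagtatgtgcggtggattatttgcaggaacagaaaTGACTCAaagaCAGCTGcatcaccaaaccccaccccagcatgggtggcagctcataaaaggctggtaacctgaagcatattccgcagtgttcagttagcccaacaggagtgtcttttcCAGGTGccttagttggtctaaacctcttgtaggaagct

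Peaks of the 30-cycle list numbered 18283 and those of the 36-cycle list 12674, and lists were joined wherever peaks overlapped or touched. The lists give the position of each peak without a height or read count, so the depth behind a peak is unknown and its strength was not compared. The authors report some noise in the WFS1 signal, which they ascribe in part to the double crosslinking. Distances run from the nearest edge of a peak to the annotated start site of the gene. Intervals in brackets are 95% Wilson intervals, which cover counting error only and treat peaks as independent, although peaks of 1 gene share their locus.

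All 10 genes had a WFS1 peak within 100 kb, where 73.4% of all protein-coding genes had one. The number of peaks differed widely between the genes, from 22 around Zeb2 to 1 around Id4. Between these extremes lay Id1 with 11 peaks, Zeb1 with 10, Id3, Twist2 and Snai1 with 9 each, Id2 with 7, and Twist1 and Snai2 with 2 each. The median was 9 peaks per gene, against 2.00 for all protein-coding genes, whose upper quartile was 5.00. Since a long gene opens a wider window, peaks were also counted within 100 kb of the start site alone, which gave medians of 7.50 and 2.00. Counted in this way, Zeb2 fell from 22 to 14 peaks, Zeb1 from 10 to 1 and Twist2 from 9 to 8, and the counts of the 7 short genes did not change. On this count, each family held a gene with 8 or more peaks and a gene with 1 or 2.

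**Figure D1:**
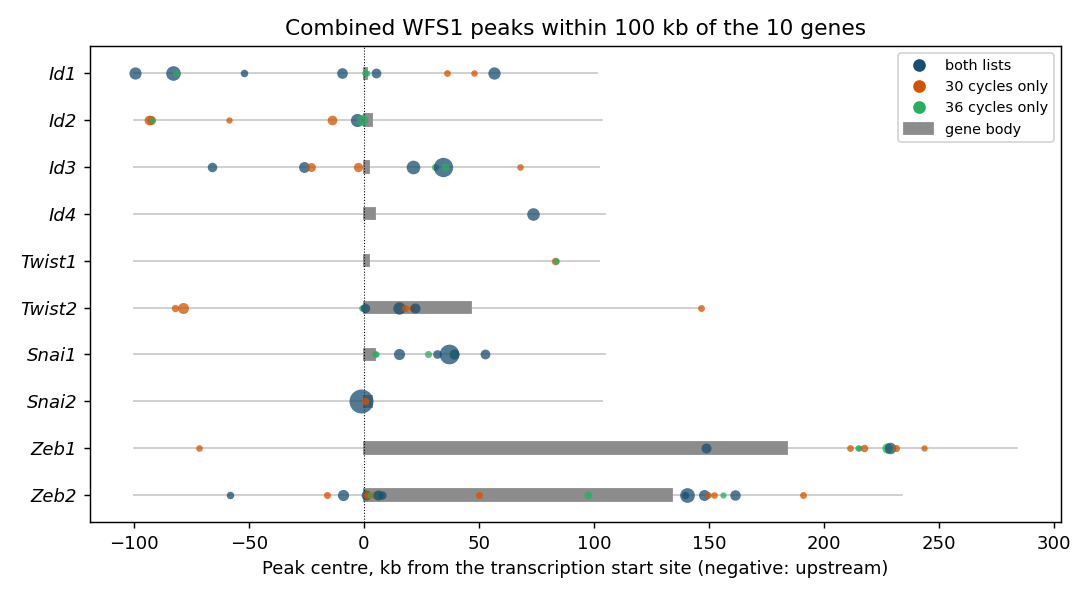
WFS1 peaks within 100 kb of each of the 10 genes, drawn by the distance of the peak centre from the transcription start site in kb, with upstream to the left. Each point is 1 peak, larger points are wider peaks, colours give the list or lists in which the peak was called, and grey bars are gene bodies. All 9 Snai1 peaks lie downstream, whereas 7 of 7 Id2 peaks lie upstream.

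**Figure D2:**
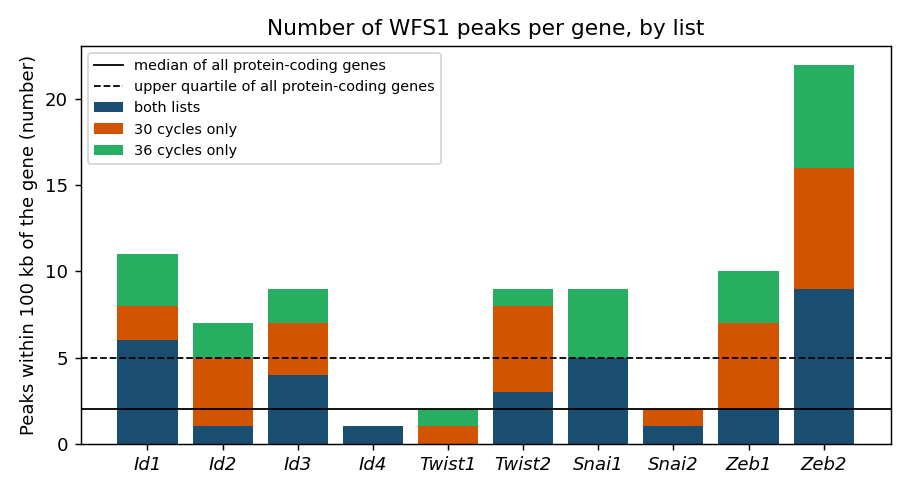
Number of peaks within 100 kb of each gene, stacked by list. The solid line is the median of all protein-coding genes (2.00) and the dashed line their upper quartile (5.00). Id4, Twist1 and Snai2 stay at or below the median and the other 7 genes exceed the upper quartile.

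For most of the genes, the nearest peak lay within a few kb of the annotated start site. A peak within 1 kb of the start was found for Id1, Id2, Twist2, Snai2 and Zeb2, which is 5 of 10 genes, where 13.2% of all protein-coding genes had one. The count depended on list and limit, with 3 genes in the 30-cycle list alone and 2 genes at a limit of 250 bp, and the peaks within 1 kb of Id1 and Id2 were in the 36-cycle list alone. Of these 5 genes, 0 had the start site itself inside a peak, against 25.5% of all genes with a peak within 1 kb, and with 5 genes nothing is read from this count. It uses the outermost start of each gene, and of the 29 annotated transcript starts of Zeb2, 8 lay inside a peak. For Zeb1 it was 0 of 11, and no annotated transcript start of the other genes lay inside a peak. The share over the transcript starts of all genes was not counted. The nearest edges lay 0.116 kb from the start of Snai2, 0.154 kb from Twist2, 0.492 kb from Id2, 0.526 kb from Id1 and 0.531 kb from Zeb2. Farther out followed Id3 at 2.53 kb and Snai1 at 4.80 kb, while Zeb1, Id4 and Twist1 had no peak nearer than 71.5, 73.2 and 82.9 kb. The median distance was 1.53 kb for the 10 genes and 41.7 kb for all protein-coding genes. RefSeq promoter windows, which run from 250 bases before to 50 bases after a start, were at hand for 7 of the 10 genes (10 windows), and 0 of them overlapped a peak, against 5.40% of all 32851 windows, a share too low to read anything from 10 windows. The nearest peak lay 25 bp and 51 bp from a pair of Zeb2 windows and 105 bp from the Twist2 window.

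**Figure D3:**
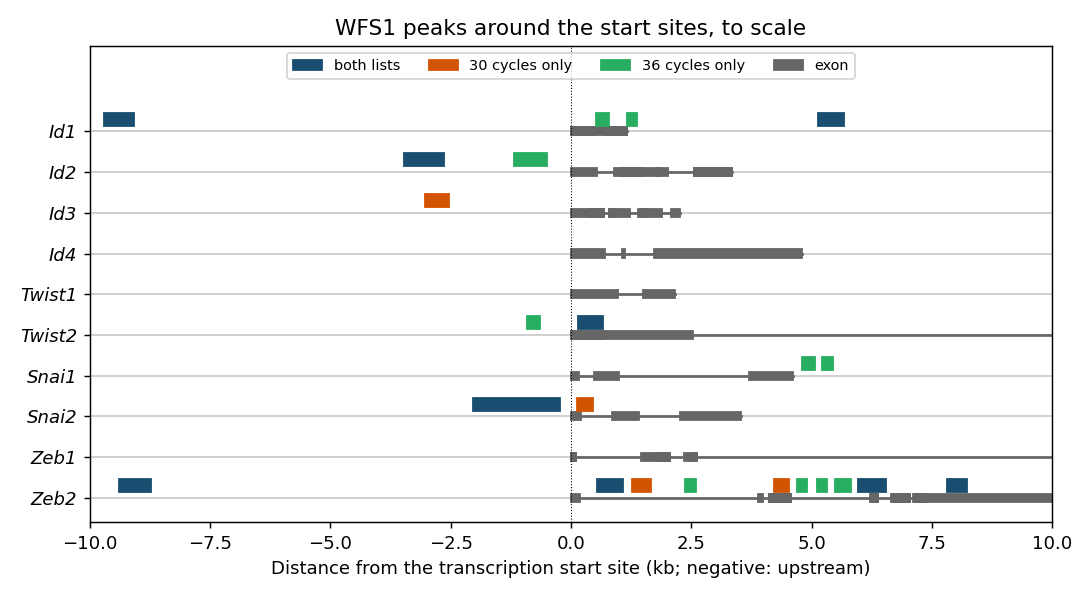
Peaks within 10 kb of the start sites, to scale, with coloured bars for peaks by list, grey boxes for exons of any transcript and grey lines for the gene body. The horizontal axis is the distance from the start site in kb. No bar crosses the dotted line at the start, and Zeb2 has a row of 9 peaks between 0.531 and 7.82 kb.

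Among the Id genes, Id1 (ENSMUSG00000042745, chr2:152736251-152737410, plus strand) had the most peaks, and 4 of its 11 lay within 10 kb of the start. Peaks of both lists flanked the gene, 1 of 626 bp at 9.07 kb upstream and 1 of 548 bp at 5.12 kb from the start beyond the gene end. Between them, a peak of 262 bp overlapped coding exon sequence of Id1 itself at 0.526 kb, and a peak of 204 bp followed at 1.17 kb, directly past the gene end. Both of these were called after 36 cycles only. The other 7 peaks lay 36.1 kb or more from the start, and all 7 were nearer to the start of another gene (Rem1, H13, Mcts2 or Cox4i2) than to that of Id1. The widest of the 11, with 975 bp, lay 82.6 kb upstream. In the upstream flanking peak, the AP-1 motif and the MyoD-type E-box shown above were 15 bases apart, and the whole peak held 3 matches to each. In the downstream flanking peak, the RUNX-type motif and a Snail/Zeb-type E-box shared bases.

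Id2 (ENSMUSG00000020644, chr12:25093799-25097140, minus strand) had all 7 peaks on its upstream side and no other protein-coding start in the window. A peak of 700 bp from the 36-cycle list alone began 0.492 kb upstream, and its widest peak, of 845 bp and in both lists, began at 2.63 kb. It was the only peak of both lists around this gene. Single peaks lay 13.6 kb and 58.4 kb upstream, and 3 peaks stood together within 1.51 kb at 92.1 to 93.0 kb. The 4 distant peaks overlapped Gm36287, a long noncoding RNA gene. In the nearest of the group of 3, an AP-1 motif was followed by a MyoD-type E-box after 4 bases, and a Snail/Zeb-type E-box stood in the same 200 bp.

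Id3 (ENSMUSG00000007872, chr4:136143497-136145755, plus strand) had 1 peak within 10 kb, of 501 bp, at 2.53 kb upstream and called after 30 cycles only. Its 9 peaks fell on both sides, 4 upstream and 5 downstream. Peaks of 647 bp (both lists) and 471 bp (30 cycles only) stood at 25.7 and 22.8 kb upstream. The widest, of 1393 bp and in both lists, lay 33.6 kb from the start and overlapped coding sequence of the neighbouring E2f2, a cell cycle transcription factor gene. With E2f2 covering 3 of the downstream peaks and Asap3 another, 6 of the 9 peaks were nearer to the start of another protein-coding gene than to that of Id3.

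Id4 (ENSMUSG00000021379, chr13:48261228-48266026, plus strand) had a single peak, of 796 bp and in both lists, 73.2 kb from the start past the gene end. Annotated repeats made up 54.6% of it. The peak held 23 copies of the Snail/Zeb-type E-box, of which 7 lie in the stretch shown above, and neighbouring copies were 28 bases apart in 11 cases and 27 bases apart in 6, which is a tandem array. Whether the repeats had a part in the call was not tested.

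The Twist genes differed in their surroundings. Twist2 (ENSMUSG00000007805, chr1:91801461-91848028, plus strand) had 9 peaks, of which 5 lay inside the gene and 3 of these were in both lists. The first, of 512 bp, began 0.154 kb past the start and overlapped coding sequence and UTR of the first exon, with a GC content of 65.8%, the highest of all 82 peaks. A peak of 273 bp from the 36-cycle list alone began 0.649 kb before the start and overlapped the noncoding gene Gm29100. Peaks of both lists of 778 bp and 570 bp lay in the intron at 15.0 and 21.8 kb, each with an AP-1 motif in its central 200 bp. Between them, peaks of 321 bp and 248 bp were called after 30 cycles only. Of the remaining peaks, a pair lay 78.5 and 82.0 kb upstream, and the last lay 146 kb from the start within Hdac4, which encodes a histone deacetylase that holds back muscle gene expression.

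Twist1 (ENSMUSG00000035799, chr12:33957671-33959829, plus strand) had 2 peaks, neighbours at 82.9 and 83.4 kb from the start. The first, of 342 bp, was called after 30 cycles only and consisted of repeats to 88.0%. The second, of 279 bp, was called after 36 cycles only and held no annotated repeat, and in it an AP-1 motif was directly followed by a TEAD-type motif. Of the 10 genes, Twist1 was the only one with no peak of both lists.

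Snail genes showed opposite arrangements. Snai1 (ENSMUSG00000042821, chr2:167538195-167542814, plus strand) had 9 peaks, all downstream of the gene, at 4.80 to 52.1 kb from the start. The nearest 2, of 278 and 232 bp, lay past the gene end at 4.80 and 5.21 kb and were called after 36 cycles only. The other 7 lay along Gm11476, a noncoding transcript gene, and 5 of these were in both lists. The widest of them, of 1427 bp at 36.4 kb, was 1 peak of 1327 bp after 36 cycles and 2 peaks of 536 and 556 bp after 30 cycles. It headed a group of 3 peaks in 2.93 kb. The most distant of the 9, of 551 bp, held 3 copies of the MyoD-type E-box in its central 200 bp, the most of any of the 82 peaks, and the last copy shared bases with a RUNX-type motif.

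Snai2 (ENSMUSG00000022676, chr16:14705852-14709385, plus strand) had only 2 peaks, but both lay at its start. The upstream peak ended 0.237 kb before the start and measured 1804 bp, the widest of the 82. Of all combined peaks, 140 (0.628%) were at least as wide. It was 1 peak of 1804 bp after 30 cycles and was split into pieces of 1288 and 200 bp after 36 cycles. The other peak, of 337 bp and called after 30 cycles only, began 0.116 kb past the start and overlapped the first exon. Together they covered 85.9% of 2.49 kb, with the start site in the gap. The whole upstream peak held 4 Snail/Zeb-type and 2 MyoD-type E-boxes.

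Zeb2 (ENSMUSG00000026872, chr2:44983632-45117395, minus strand) had the most peaks of the 10 genes, with 9 in both lists, 7 after 30 cycles only and 6 after 36 cycles only. Within 10 kb of its start lay 10 peaks, which was reached by 7 genes in all (0.0319% of protein-coding genes). Of these 10, 9 formed a row inside the gene from 0.531 to 7.82 kb. The row spanned 7.69 kb, of which 3195 bp (41.5%) were covered, and 3 of its peaks were in both lists, 2 after 30 cycles only and 4 after 36 cycles only. Its members were narrow, from 198 to 572 bp, and 5 of them overlapped Zeb2os, the gene annotated antisense to Zeb2. Several neighbours in the row lay less than 500 bp apart, so the number of Zeb2 peaks depends on how finely peaks are split. With peaks up to 500 bp apart joined, the 82 peaks around the 10 genes became 65, and the rank of Zeb2 was not recounted. The peaks of both lists in the row measured 553 bp at 0.531 kb, 572 bp at 5.97 kb and 409 bp at 7.82 kb, and the last had a GC content of 64.1%.

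Upstream of Zeb2 lay peaks of 672 bp at 8.72 kb (both lists), 310 bp at 15.9 kb (30 cycles only) and 346 bp at 57.9 kb (both lists). In the peak at 15.9 kb, an AP-1 motif stood 4 bases from a MyoD-type E-box, the same spacing as in the Id2 peak. Past the gene end, 7 peaks lay 139 to 161 kb from the start, 4 of them in both lists, among them the widest Zeb2 peak with 989 bp. An eighth lay 191 kb away in Gtdc1. All 8 and the most distal peak inside Zeb2 were nearer to the start of Gtdc1 than to that of Zeb2.

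Zeb1 (ENSMUSG00000024238, chr18:5591860-5775467, plus strand) had 10 peaks, yet the nearest lay 71.5 kb upstream of its start. A single peak, of 565 bp and in both lists, lay inside the gene, 148 kb from the start and in an intron. The other 8 lay past the gene end, 211 to 243 kb from the start, 4 in the 30-cycle list alone, 3 in the 36-cycle list alone and 1 in both. The latter was the widest Zeb1 peak with 701 bp, at 228 kb, and held an AP-1 motif and a MyoD-type E-box in its central 200 bp. All 10 had Zeb1 as the gene with the nearest protein-coding start.

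Taking all 82 peaks, 24 lay upstream, 19 inside and 39 downstream of their gene. A peak inside the gene was found for Id1, Twist2, Snai2, Zeb1 and Zeb2, or 5 of 10, against 24.6% of all protein-coding genes. A long gene has more room for a peak, and Zeb1, Zeb2 and Twist2 span 184, 134 and 46.6 kb. The share was not adjusted for gene length. Of the 19 peaks inside, 13 overlapped no exon of the gene and 3 overlapped coding sequence, those of Id1, Twist2 and Snai2. Zeb2 alone held 11 of the 19. Sides and exon overlaps were not counted over all combined peaks, so these numbers only describe the 82 peaks. The nearest protein-coding start was that of 1 of the 10 genes for 59 of the 82 peaks, or 72.0% (61.4 to 80.5). Of the remaining 23, 9 were nearest to Gtdc1 beside Zeb2 and 4 to E2f2 beside Id3. Distance alone does not assign a peak to a gene, and which gene a peak acts on, if any, was not measured.

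Peaks of both lists made up 32 of the 82, or 39.0% (29.2 to 49.8), which lies near the 35.4% of all combined peaks. Called after 30 cycles only were 28, or 34.1% (24.8 to 44.9), against 45.5%, and after 36 cycles only 22, or 26.8% (18.4 to 37.3), against 19.1%. Larger gaps were seen near the start sites, in a split that was not planned. Within 10 kb of a start of the 10 genes, 4 of 23 peaks were in the 30-cycle list alone, or 17.4% (6.98 to 37.1), against 50.3% of the 6889 combined peaks within 10 kb of a protein-coding start. In the 36-cycle list alone were 10, or 43.5% (25.6 to 63.2), against 20.6%, and in both lists 9, or 39.1% (22.2 to 59.2), against 29.0%. The 10 peaks of the 36-cycle list alone belonged to Id1, Id2, Twist2, Snai1 and Zeb2, and 4 of them stood in the row of Zeb2, so they are not independent of each other.

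Widths followed the lists in the same way as in the whole set. The median was 356 bp around the 10 genes and 376 bp over all combined peaks. Peaks of both lists had a median of 636 bp (623 bp over all), those after 30 cycles only 308 bp (324 bp), and those after 36 cycles only 276 bp (255 bp). In 23 of the 32 peaks of both lists, more bases were called after 30 than after 36 cycles, and over all such peaks the share was 69.9%. The median GC content was 49.5%, against 47.1% over all combined peaks, and 7 of the 82 peaks consisted of repeats to more than 50%, or 8.54% (4.20 to 16.6), against 10.4%.

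**Figure D4:**
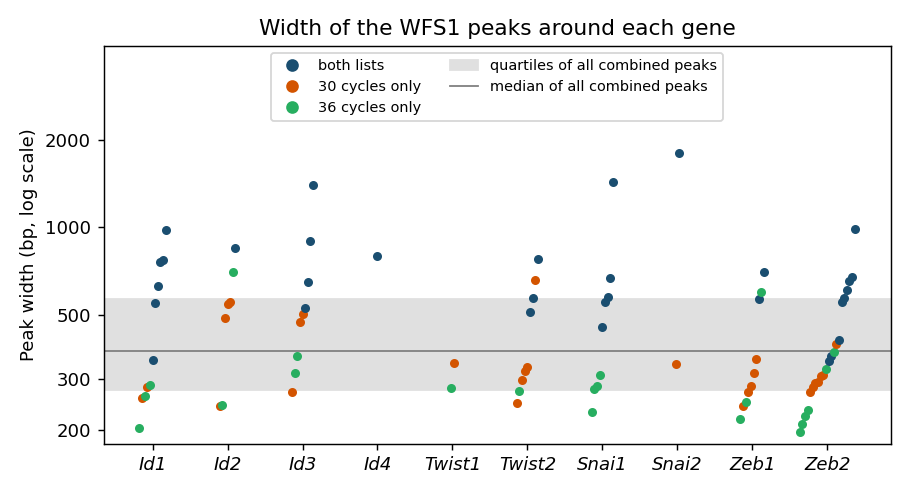
Width of each peak around the 10 genes in bp on a log scale, coloured by list, beside the quartiles (grey band) and the median (grey line) of all combined peaks. Single peaks of 1804 bp at Snai2, 1427 bp at Snai1 and 1393 bp at Id3 stand above the others, and the Zeb2 peaks reach down to 198 bp.

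The motifs in the central 200 bp of the peaks around the 10 genes were mostly as frequent as in the whole set. CAGCTG was found in 16 of 82 peaks, or 19.5% (12.4 to 29.4), against 18% of all combined peaks. TGACTCA was found in 18, or 22.0% (14.4 to 32.1), against 17.9%, and CATTCC in 10, or 12.2% (6.76 to 21.0), against 15.6%. All 3 shares lie near the whole set. CACCTG, the sequence type that Snail and Zeb proteins bind, was found in 16 peaks, or 19.5% (12.4 to 29.4), against 11.0%, and these, the Id4 array among them, lay around all of the genes except Twist1. This was 1 of 6 motifs looked at, and its share was not counted in other windows. Whether the GC content of these peaks has a part in it was not tested. TGTGGT was found in 13 peaks, or 15.9% (9.51 to 25.3), against 24.7%. GGCGCC was found in 0 peaks (upper limit 4.48%), against 2.79%. At least 1 of the 6 motifs was present in 52 peaks, or 63.4% (52.6 to 73.0), and in 62.2% of all combined peaks, which leaves 30 peaks around the 10 genes without any. These are matches of letters, and binding of a factor to them was not measured.

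**Figure D5:**
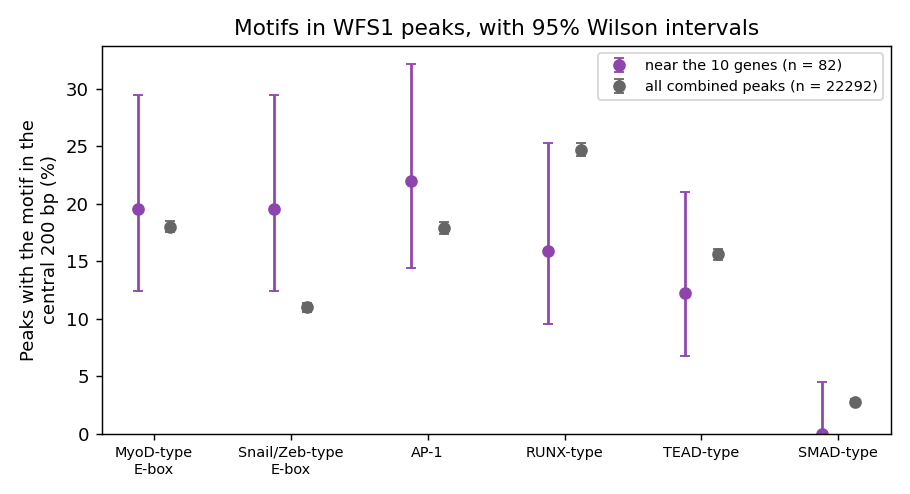
Share of peaks with each motif in the central 200 bp, in percent, for the 82 peaks around the 10 genes and for all 22292 combined peaks, with 95% Wilson intervals as bars. The interval of the 82 peaks spans the whole-set share for 5 of the motifs and lies above it for the Snail/Zeb-type E-box only, at 12.4 to 29.4 against 11.0.

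CAGCTG and TGACTCA occurred together in the central 200 bp of 5 of the 82 peaks, or 6.10%, and in 820 of all combined peaks, or 3.68%. The 5 peaks belonged to Id1, Id2, Zeb2 and, with 2 peaks, Zeb1. A gap of 4 bases between the motifs, as at Id2 and Zeb2, occurred in 21 combined peaks, and any other gap of 0 to 30 bases in 6 to 19 peaks, with a median of 11.0. With 2 peaks, no preference for this gap can be read for the 10 genes.

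A list of E protein genes and genes of related factor families, and a list of BMP pathway genes, were counted in the same way. Of 27 genes for E proteins and other basic helix-loop-helix or Snail-like factors, 26 had a peak within 100 kb, with a median of 4 peaks, and 6 had one within 1 kb of the start, beside 73.4% and 13.2% of all protein-coding genes. The start site itself lay inside a peak for 4 genes, namely Scx, Hes1, Hes6 and Bhlhe41, and for 738 of all 21938 protein-coding genes. Among all genes with a peak within 1 kb this share was 25.5%, and 6 genes are too few to compare with it. The highest number was 16 peaks, around Hes6, and Hes1 had 10, of which 8 were in both lists. The E protein genes Tcf3, Tcf4 and Tcf12 had 9, 6 and 8 peaks, and only Ferd3l, the neighbour of Twist1, had none. Of 30 genes of the BMP pathway, which drives Id transcription, 22 had a peak within 100 kb, about the share of all protein-coding genes, and the median of 2.00 equalled theirs. Of the 7 ligand genes, Bmp5 and Gdf5 had 5 peaks each and Bmp2, Bmp4, Bmp6, Bmp7 and Gdf6 had none. The 7 receptor genes had 1 to 7 peaks, with 1 at Bmpr1b and Acvr2b, 6 at Acvr1 and 7 at Bmpr1a. The intracellular mediators Smad1, Smad5, Smad9 and Smad4 had 3, 4, 2 and 3, and the inhibitory Smad6 and Smad7 had 5 and 7.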

How the data were processed

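WFS1 ChIP-seq peaks of proliferating wildtype C2C12 cells were taken from 2 deposited lists. Per the methods of the authors, reads were aligned with NextGenMap (GRCm38), filtered by mapping quality using samtools, and each library had its peaks called alone by MACS2. The control used in calling is not given in the sources used here. The deposited values are peak coordinates (chromosome, start and end) without signal, score or read counts, so depth is unknown and nothing was normalized.

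Both lists were joined as bedtools merge does (bedtools 2.31.1, overlapping or touching peaks). A peak was assigned to a gene when its nearest edge lay within 100 kb of the gene body. Genes and start sites, 1 per gene at its 5′ end, came from GENCODE mouse release 21 on GRCm38, and sequences from the matching reference genome. Repeats are the lower case bases of that genome. Promoter windows were those of RefSeq on GRCm38. Motifs were searched on both strands of the central 200 bp. Shares are given with 95% Wilson intervals (scipy 1.17.1). With 1 library per condition no test was run. Joining, distances and motif search were checked on simulated data. Other software was python 3.11.15, numpy 2.4.6, pysam 0.24.0 and matplotlib 3.10.9.

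The genes, comparison lists and motifs were chosen with earlier results of these data known. Described singly are peaks within 10 kb of a start, the nearest and the widest peak of each gene, and peaks of both lists inside a gene. The remaining peaks named were chosen after their values were seen. Of the sequences, those of Id1 and Snai2 are the peaks of both lists within 10 kb of the start and that of Id4 its only peak, while such peaks of other genes are not shown, and those of Id2, Twist1, Twist2, Snai1 and Zeb2 were picked after the motifs were seen. Alternatives were other distances, joining of near peaks, each list alone, a stricter overlap, other motif windows and all annotated genes.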

Additional observations from a re-analysis of the deposited data

How the results depend on the processing

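With 250 kb in place of 100 kb around the genes, 142 peaks were collected instead of 82. A peak within 250 bp of the start was left for 2 genes, against 5 at 1 kb, and the 30-cycle list alone gave 3. The share of peaks in both lists was 26.8% where each peak had to cover at least 50% of the other, against 39.0%. CAGCTG was found in 41.5% of whole peaks, 32.9% of the central 400 bp and 11.0% of the central 100 bp, against 19.5%, and TGACTCA in 12.2% of the central 100 bp, against 22.0%, since a wider window holds more sequence. The shares over all combined peaks in these windows and under the stricter overlap are not given, so nearness to the whole set was not examined there. Against the starts of all annotated genes, 25.6% of the peaks had 1 of the 10 genes as the nearest, against 72.0%. The other 16 alternatives stayed within 1.5 times the count or within the counting interval, among them 50 kb, which gave 61 peaks around 8 genes, and each list alone, which gave 61 and 55 peaks. Both lists stem from portions of 1 immunoprecipitation and hold no read counts, so no paired analysis was possible. Without read counts, the lists cannot show how strong a peak was or whether a missing peak reflects depth.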

Other observations

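Many copies of CACCTG, as in the Id4 peak, were also found in other peaks, where their spacing was not examined. Of all combined peaks, 47, the Id4 peak included, held 10 or more copies over their whole length and 28 held 23 or more, as many as the Id4 peak. Of the 47, 37 were in both lists, 9 in the 30-cycle list alone and 1 in the 36-cycle list alone. Over all combined peaks these shares were 35.4%, 45.5% and 19.1%. The median width of the 47 was 732 bp, against 376 bp for the remaining peaks. Copies were counted over whole peaks, so wide peaks have more room for them, and peaks of both lists are wide (median 623 bp over all). The counts were not adjusted for width. A start of a protein-coding gene lay within 1 kb of 1 of the 47. The share of all combined peaks this near a start was not counted, so nothing is read from it. Of the 47, 9 consisted of annotated repeats to more than 50%, against 10.4% of all combined peaks. This count was made after the Id4 peak had been seen.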
